A study of Homo sapiens with 54 samples.

Results

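Maf1 regions were compared between T47D cells given ethanol vehicle and T47D cells given R5020, a synthetic progestin, for 1 h. The members were all regions of the Maf1 chromatin immunoprecipitation (ChIP-seq) peak lists on chromosomes 1 to 22 and X: 3048 with vehicle and 22638 with R5020, together 25686 of the 469197 regions in the 12 lists used. T47D is an established human breast cancer line, labelled positive for the estrogen and progesterone receptors. All cells were grown in serum with insulin, and both treatments used the same Maf1 antibody. Each Maf1 list came from 3 libraries, and the files hold 1 list per treatment. The values therefore carry no error between replicates. The lists carry no read counts, and sequencing depth is unknown. The other lists used were those of the progesterone receptor (PR), the histone mark H3K27Ac (acetylation of H3 at lysine 27), the RNA polymerase III subunit POLR3A and its initiation factor Brf1 in both treatments, and those of the subunits POLR3C and POLR3G with vehicle.

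Maf1 is a conserved repressor of RNA polymerase III, the enzyme that makes tRNAs, 5S ribosomal RNA and other short RNAs. It binds the polymerase and the initiation factor Brf1, and phosphorylation by TORC1 and other kinases keeps it from repressing. PR is a steroid receptor that binds DNA at hormone response elements once a progestin is bound, and H3K27Ac marks active promoters and enhancers. The series title concerns repression of tRNA genes by Maf1 together with PR, and the comparison asks where Maf1 was found before and after hormone.

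The promoters under the strongest vehicle regions are shown because several of them share a short run of bases. The promoter windows below, from RefSeq (GRCh38.p14, 250 bases before to 50 after the start, 5′ to 3′ on the gene's strand), belong to genes whose start lay under a vehicle Maf1 region of fold enrichment above 19. Capitals mark the 7-base run GAATCTG, or its reverse complement CAGATTC. The run, and the windows shown for it, were chosen after the sequences and values were seen. TIMM22 encodes a mitochondrial import subunit, SETD1A and BRPF1 chromatin proteins, SFSWAP a splicing regulator, PPP1R37 a phosphatase regulatory subunit and GARS1 the glycyl-tRNA synthetase.
TIMM22 (chr17:996879-997178, + strand): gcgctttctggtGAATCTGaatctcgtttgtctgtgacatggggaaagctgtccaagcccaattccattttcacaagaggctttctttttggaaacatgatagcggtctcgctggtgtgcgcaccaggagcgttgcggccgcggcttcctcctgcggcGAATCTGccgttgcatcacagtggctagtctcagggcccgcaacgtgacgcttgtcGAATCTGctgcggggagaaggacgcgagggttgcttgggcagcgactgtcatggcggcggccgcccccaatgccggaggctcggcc
SETD1A (chr16:30957504-30957803, + strand): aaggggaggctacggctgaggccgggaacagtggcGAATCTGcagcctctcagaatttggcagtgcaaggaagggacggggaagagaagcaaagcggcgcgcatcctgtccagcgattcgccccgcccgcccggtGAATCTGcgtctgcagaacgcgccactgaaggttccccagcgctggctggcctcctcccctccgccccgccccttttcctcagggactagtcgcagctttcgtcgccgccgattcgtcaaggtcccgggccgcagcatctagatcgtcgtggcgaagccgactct
SFSWAP (chr12:131710840-131711139, + strand): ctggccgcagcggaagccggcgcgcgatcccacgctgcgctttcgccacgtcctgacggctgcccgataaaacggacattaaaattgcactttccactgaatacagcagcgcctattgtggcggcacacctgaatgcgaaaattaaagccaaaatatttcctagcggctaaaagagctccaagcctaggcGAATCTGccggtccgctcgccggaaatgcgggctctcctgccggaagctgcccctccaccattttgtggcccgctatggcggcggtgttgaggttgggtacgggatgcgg
BRPF1 (chr3:9731485-9731784, + strand): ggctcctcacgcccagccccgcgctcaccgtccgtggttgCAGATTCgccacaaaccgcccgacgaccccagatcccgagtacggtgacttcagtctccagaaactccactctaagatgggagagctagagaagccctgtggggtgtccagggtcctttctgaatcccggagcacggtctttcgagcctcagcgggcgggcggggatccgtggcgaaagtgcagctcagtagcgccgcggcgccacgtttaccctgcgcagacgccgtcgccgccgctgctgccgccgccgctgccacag
PPP1R37 (chr19:45092929-45093228, + strand): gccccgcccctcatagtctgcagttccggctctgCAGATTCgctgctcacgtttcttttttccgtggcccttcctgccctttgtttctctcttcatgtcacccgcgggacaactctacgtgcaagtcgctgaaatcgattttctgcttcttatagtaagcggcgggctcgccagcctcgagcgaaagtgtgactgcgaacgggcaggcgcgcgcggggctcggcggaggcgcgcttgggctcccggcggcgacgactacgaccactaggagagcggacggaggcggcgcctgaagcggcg
GARS1 (chr7:30594628-30594927, + strand): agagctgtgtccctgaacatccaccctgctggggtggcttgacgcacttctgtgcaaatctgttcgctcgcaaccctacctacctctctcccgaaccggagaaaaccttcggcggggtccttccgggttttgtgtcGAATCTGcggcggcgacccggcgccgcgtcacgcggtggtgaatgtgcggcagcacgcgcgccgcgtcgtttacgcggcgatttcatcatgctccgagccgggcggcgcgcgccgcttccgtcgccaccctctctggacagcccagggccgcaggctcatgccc

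The run was found in 14 of the 54 promoter windows under a vehicle Maf1 region of fold 10 or more (25.9%, 95% Wilson interval 16.1 to 38.9). It was found in 674 of all 22012 windows of protein-coding genes (3.06%). Under vehicle regions of fold below 5 it was in 22 of 1000 windows (2.20%), and between 5 and 10 in 5 of 240 (2.08%). From 10 to 20 it was in 9 of 41 (22.0%) and from 20 upward in 5 of 13 (38.5%, 17.7 to 64.5). The 5 include the TIMM22 and SETD1A windows, in which the run was first seen. With a further C at its end, the run was in 10 of the 54 windows and in 173 of all windows (0.786%). TIMM22 held 3 copies and SETD1A 2. Leaving out these windows, in which the run was first seen, left 12 of 52 (23.1%). Windows of the same gene can overlap, and the 54 windows belonged to 43 genes. GARS1 and ARL1 each entered the 14 with 2 overlapping windows that hold the same copy.

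With R5020 the run was in 9 of 34 windows under regions of fold 20 or more (26.5%) and in 21 of 226 under regions of fold 10 or more (9.29%). In the windows of fold 10 or more whose Maf1 region was in the R5020 list alone, it was in 2 of 54 (3.70%, 1.02 to 12.5). The run was thus common under the strongest regions present before hormone, from which it had been picked. Under hormone-only regions of fold 10 or more its interval held the share in all promoters.

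**Figure D1:**
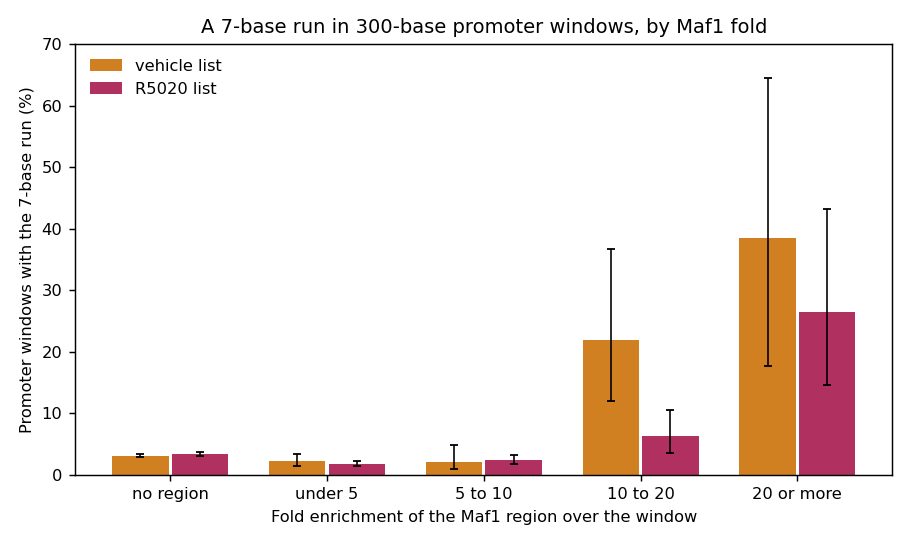
Share of 300-base promoter windows holding the 7-base run on either strand (y axis, percent) by the fold enrichment of the Maf1 region over the window (x axis) for the vehicle and R5020 lists; bars are shares and lines are 95% Wilson intervals. The share was 38.5% at vehicle fold 20 or more and 3.06% over windows with no vehicle region. The former includes the TIMM22 and SETD1A windows, in which the run was first seen.

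Windows under leading regions without the run are shown for contrast. SF3B6, a splicing factor subunit whose start lies next to that of FAM228B, lay under the top region of both lists. EHMT1, a histone H3 lysine 9 methyltransferase, lay under one of the top shared regions of the R5020 list. BLNK, an adaptor of B cell signalling, lay under a hormone-only region. Capitals here mark GGGCGG (a GC box) or CCAAT on either strand.
SF3B6 (chr2:24076277-24076576, − strand): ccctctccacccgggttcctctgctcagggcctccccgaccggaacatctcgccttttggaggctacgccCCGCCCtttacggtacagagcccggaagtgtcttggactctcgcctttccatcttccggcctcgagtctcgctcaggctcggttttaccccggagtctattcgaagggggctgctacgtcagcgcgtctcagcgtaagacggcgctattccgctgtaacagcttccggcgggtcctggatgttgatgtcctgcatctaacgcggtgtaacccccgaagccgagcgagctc
EHMT1 (chr9:137618755-137619054, + strand): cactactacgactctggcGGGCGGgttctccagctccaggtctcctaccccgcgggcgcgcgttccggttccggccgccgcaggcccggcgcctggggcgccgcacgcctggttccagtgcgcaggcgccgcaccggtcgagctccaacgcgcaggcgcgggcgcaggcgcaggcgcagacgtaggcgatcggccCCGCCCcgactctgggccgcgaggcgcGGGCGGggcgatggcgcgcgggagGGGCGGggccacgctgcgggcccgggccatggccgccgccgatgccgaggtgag
BLNK (chr10:96271520-96271819, − strand): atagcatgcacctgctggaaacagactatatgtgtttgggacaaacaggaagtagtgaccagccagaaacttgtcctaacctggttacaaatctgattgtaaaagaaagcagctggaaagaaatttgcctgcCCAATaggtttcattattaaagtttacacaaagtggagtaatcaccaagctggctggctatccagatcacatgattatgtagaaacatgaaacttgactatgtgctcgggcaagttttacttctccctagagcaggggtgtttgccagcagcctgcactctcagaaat

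GGGCGG was in 81.7% (79.6 to 83.6) of the 1419 windows with a Maf1 region found in both treatments and in 77.8% (76.6 to 79.0) of the 4606 windows with a hormone-only region. It was in 66.1% (65.1 to 67.2) of acetylated windows without R5020 Maf1 and in 56.3% of all windows. Median GC content was 69.7%, 67.7%, 64.3% and 62.3% in the same order. The PR half-site TGTTCT was in 5.21% of the windows with shared Maf1, in 7.23% of those with hormone-only Maf1 and in 11.8% of all windows. The full element, AGAACA then 3 bases then TGTTCT, was in 0 of 22012 windows. With 1 mismatch or none it was in 19 of them, among these 0 of the 1419 shared and 3 of the 4606 hormone-only windows. An exact match to so long an element is rare in any sequence. The 0 therefore does not tell whether promoters hold sites that PR can bind. TGANTCA was in 3.31%, 3.26% and 6.16% of the shared, hormone-only and all windows, and CCAAT in 29.2%, 32.4% and 34.7%. GGTTCGA, part of the tRNA B box, was in 1.69%, 1.19% and 0.949%. In acetylated windows without R5020 Maf1, TGTTCT was in 9.11%, TGANTCA in 4.61%, CCAAT in 36.2% and GGTTCGA in 1.11%. Windows with Maf1 were therefore richer in GC boxes and poorer in PR half-sites than promoters at large. Against acetylated windows without R5020 Maf1 both differences were smaller. GC content moved with these shares. The part of GC content in them was not tested.

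The R5020 list held 7.43 times as many regions as the vehicle list, a log2 ratio of 2.89 (95% counting interval 2.84 to 2.95). Regions covered 1.09 Mb with vehicle and 8.23 Mb with R5020, and their median widths were 267 and 276 bp. Of the 3048 vehicle regions, 2789 overlapped an R5020 region by at least 1 bp (91.5%, 90.5 to 92.4) and are called retained; the other 259 are called lost. Of the 22638 R5020 regions, 2617 overlapped a vehicle region (11.6%) and are called shared; the other 20021 are called hormone-only. The regions of vehicle cells were nearly all found again, and most of the longer list had no counterpart. Treatment and any difference in depth or background between the lists cannot be told apart. When the R5020 list was limited to its 3048 top-ranked entries by −log10 q, 27.7% of vehicle regions were found again. The vehicle list, itself 3048 regions long, stayed whole. Its −log10 q went down to 1.34, while the R5020 entries kept had at least 18.0. When 50% of both regions had to overlap, 46.0% of vehicle regions were found again.

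Shared regions were wide, at a median of 557 bp against 260 bp for hormone-only regions, and 169 of them covered 2 or more vehicle regions, at most 6. Within the R5020 list, the authors' fold enrichment had a median of 5.68 at shared and 4.14 at hormone-only regions. Within the vehicle list it was 3.91 at retained and 3.59 at lost regions. Where regions of both lists overlapped, their summits lay a median of 58 bp apart over 2824 pairs. Of the lost regions, 59 had an R5020 Maf1 summit within 1 kb, and the median distance to one was 11063 bp.

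The regions of the R5020 list lay at gene ends less often than those of the vehicle list, and 31.1% of hormone-only regions did. A protein-coding gene began or ended within 1 kb of 1682 vehicle regions (55.2%) and of 7807 R5020 regions (34.5%), a log2 ratio of 2.21 (2.14 to 2.29). Inside genes but away from their ends the counts were 664 and 8336 (3.65, 3.54 to 3.76), and between genes 702 and 6495 (3.21, 3.10 to 3.32). Of these ratios the one at gene ends was lowest. The intervals cover the counting of regions alone. With 1 list per treatment they cannot show whether the effect of treatment differed by place. Where vehicle cells had H3K27Ac the counts were 2670 and 16064 (2.59, 2.53 to 2.65), and elsewhere 378 and 6574 (4.12, 3.97 to 4.27).

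Acetylation was already present at most hormone-only regions. Vehicle H3K27Ac overlapped 68.3% of them (67.6 to 68.9), 91.7% of shared regions (90.5 to 92.7), 90.1% of retained regions and 60.6% of lost regions (54.6 to 66.4). Hormone-only regions divided into 65.5% acetylated in both treatments, 9.15% acetylated with R5020 alone, 2.74% with vehicle alone and 22.6% in neither. Of the shared regions 90.1% were acetylated in both treatments and 1.26% with R5020 alone.

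PR was frequent at both hormone-only and shared regions. It overlapped 82.2% of hormone-only regions (81.7 to 82.7) and 83.0% of shared regions, a difference of 0.777 percentage points (−0.800 to 2.27). Shared regions are wider, and wide regions overlap more readily. By the Maf1 summit alone, 79.2% of hormone-only and 76.3% of shared summits lay in an R5020 PR region, a difference of −2.80 points (−4.56 to −1.12, shared minus hormone-only). The lists differed in when PR was there. At hormone-only regions PR was in the R5020 list alone for 67.6%, in both lists for 14.6% and in neither for 17.4%. At shared regions it was in both lists for 55.9% (54.0 to 57.8), in the R5020 list alone for 27.1% and in neither for 15.3%. The most frequent combination among hormone-only regions was PR with R5020 alone on chromatin acetylated before hormone, at 46.4%. PR and acetylation both with R5020 alone made up 7.58%. The R5020 PR list held 173115 regions and the vehicle PR list 6662, and overlap with the longer list is more likely for any region. When 50% of both regions had to overlap, PR was at 20.8% and vehicle H3K27Ac at 3.56% of hormone-only regions.

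Maf1 and PR summits lay close together after hormone. The distance from an R5020 Maf1 summit to the nearest R5020 PR summit had a median of 62 bp, and 57.1% of summits (56.4 to 57.7) lay within 100 bp of one. The median was 55 bp at hormone-only and 153 bp at shared regions. With vehicle it was 297 bp to the nearest vehicle PR summit, with 37.8% within 100 bp. H3K27Ac summits lay farther off, at a median of 394 bp with R5020 and 361 bp with vehicle. POLR3A summits were close to few Maf1 summits: 0.720% lay within 100 bp with R5020 and 1.18% with vehicle.

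**Figure D2:**
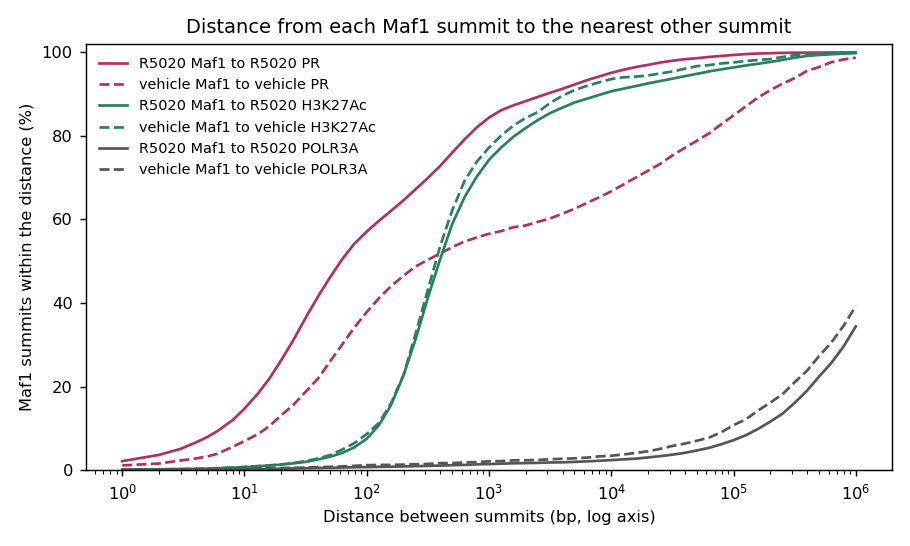
Share of Maf1 summits (y axis, percent) with a summit of PR, H3K27Ac or POLR3A within the distance on the x axis (bp, log axis); solid lines are R5020 lists and dashed lines vehicle lists. At 100 bp the PR lines stand at 57.1% with R5020 and 37.8% with vehicle, and the POLR3A lines at 0.720% and 1.18%.

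Features of the regions varied with their rank in the R5020 list by the authors' −log10 q. The list was divided into 10 equal parts. PR overlapped 99.0% of regions in the top 10% and 51.9% in the last, falling at each step. Vehicle H3K27Ac went from 85.3% to 57.2%. A protein-coding gene end within 1 kb was least frequent in the top 10%, at 17.3%, and most frequent in the eighth part, at 40.6%. Vehicle Maf1 was at 23.3% of the top 10%, 25.3% of the next and 2.87% of the last. Brf1 overlapped 7.82% of the top 10% and 1.19% of the last, and POLR3A 0.398% and 1.41%. The highest-ranked regions were thus mostly away from genes' ends and nearly always under PR. Seen from PR, 10.2% of R5020 PR regions held Maf1; the share was 59.2% among the highest-ranked 10% of the PR list, 7.34% among the next 10% and between 3.91% and 6.44% in the others.

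**Figure D3:**
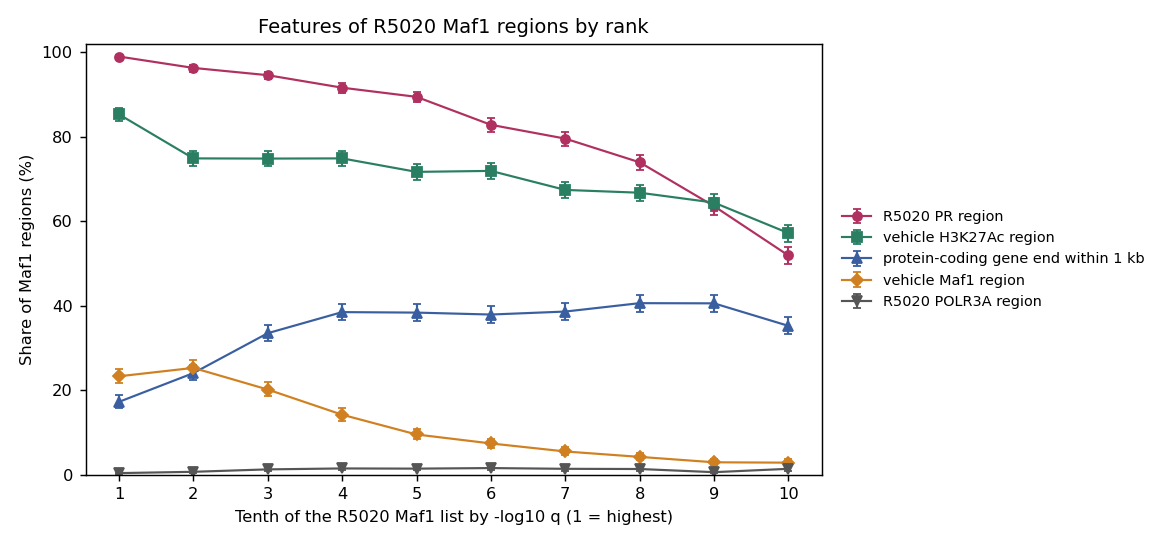
Share of R5020 Maf1 regions (y axis, percent) with each feature, over 10 equal parts of the list in order of −log10 q (x axis, 1 is the highest); points are shares and bars 95% Wilson intervals. PR falls from 99.0% to 51.9%, while gene ends are at 17.3% in the top 10% and 40.6% in the eighth part.

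Hormone-only regions without PR differed from those with it. Vehicle H3K27Ac was at 73.5% of hormone-only regions with PR and 44.1% of those without, a difference of 29.4 points (27.6 to 31.1). POLR3A was at 0.504% with PR and 3.65% without (−3.15 points, −3.82 to −2.57), and tRNA genes at 0.279% and 0.815% (−0.535 points, −0.895 to −0.271). Among all R5020 regions, the median fold was 4.54 with PR and 3.35 without. The vehicle POLR3G list, which held 58423 regions, overlapped 85.4% of shared regions and 42.2% of hormone-only regions.

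Most of the strongest regions named here lay at genes of varied function. With vehicle, the region of highest −log10 q covered SF3B6 and FAM228B at fold 33.9, and the R5020 region over it had fold 44.2 in its own list. The next ones lay in NPAS4, a neuronal activity transcription factor (22.4 with vehicle and 27.9 with R5020), at TIMM22 (31.9 and 37.3) and at SETD1A (30.4 and 33.8). The fifth vehicle region was 18417 bp wide at chr21:8989237-9007653, covered no gene and had fold 23.8. The leading shared R5020 regions included SNORD3A, the U3 small nucleolar RNA gene (fold 34.0), EHMT1 (36.4) and ARHGDIA (35.2). Folds of the 2 lists stand side by side here and were not compared, since each list has its own background.

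The leading hormone-only regions at gene ends were all under PR and all acetylated before hormone. They lay at MCCC1, a leucine catabolism enzyme (fold 21.5), BCL2L1, which encodes the survival protein Bcl-xL (23.8), ABCC11, an export pump (33.7), ZNF217, an amplified oncogene of breast cancer (2 regions, 21.5 and 17.9), LOC124904102 (21.0), KRT37 (24.6), DNAAF1 and TAF1C (18.5), BLNK (18.4) and KCTD3 (19.1). PR summits lay within 100 bp of 9 of these 10 summits; the exception was the first ZNF217 region, at 857 bp. ABCC11, BLNK and KCTD3 had PR with vehicle as well.

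The leading lost regions lay in ITPK1 (fold 9.80), LOC105369458 (7.38), near SERPINA6 (6.57), in LTBP1 (7.93) and in LNCATV (6.53). All 5 had PR and H3K27Ac in both treatments, unlike most lost regions. Over all 259, R5020 PR was at 42.1% (36.2 to 48.2), vehicle PR at 32.4% and R5020 H3K27Ac at 56.0%, against 80.4%, 55.2% and 90.0% of retained regions. The strongest R5020 regions without PR lay at DYNLL1, a dynein light chain gene (fold 15.2), SNRNP35 (13.0), MIR7-3HG (16.2), ZNF71-SMIM17 (14.5) and PRAF2 (14.5). These 5 were in the vehicle list too, but 3560 of the 4005 R5020 regions without PR were hormone-only.

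The share of Maf1 regions overlapping RNA polymerase III differed between the subunit lists, and so did the length of those lists. Vehicle POLR3G, the longest of the subunit lists used, was at 81.0% of vehicle Maf1 regions and 47.2% of R5020 regions, and vehicle POLR3C was at 3.64% and 1.46%. POLR3A overlapped 50 of 3048 vehicle regions (1.64%, 1.25 to 2.16) and 266 of 22638 R5020 regions (1.18%, 1.04 to 1.32). Seen from POLR3A, 7.41% of the 688 vehicle POLR3A regions held vehicle Maf1 and 24.5% of the 1019 R5020 POLR3A regions held R5020 Maf1. For Brf1 the shares were 12.2% of 370 and 45.5% of 1157. Vehicle Maf1 was at 3.71% of the 58423 vehicle POLR3G regions and 16.2% of the 666 vehicle POLR3C regions. POLR3G, with the highest share from the Maf1 side, thus had the lowest from the side of the subunits. Of the 266 R5020 regions, 88 lay within 200 bp of a tRNA gene, 5 at one of 13 further genes that this polymerase transcribes and 173 elsewhere. Brf1, at 309 of all 422 tRNA genes with R5020, was at 88 of the 88 near tRNA genes and 116 of the 173 elsewhere. PR was at 64.8% (54.4 to 73.9) of the former and 26.6% (20.6 to 33.6) of the latter, and vehicle H3K27Ac at 86.4% and 48.0%. Median folds were 4.13 and 2.37. Among the 3048 R5020 regions of highest −log10 q, 0.525% had POLR3A.

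Maf1 was found at 14 of 422 nuclear tRNA genes with vehicle (3.32%) and at 94 with R5020 (22.3%). The whole R5020 list was 7.43 times as long as the vehicle list. Within 1 kb of the ends of protein-coding genes the shares were 9.39% and 35.8%. The rise at tRNA genes therefore cannot be told apart from the growth of the list. The tRNA genes with R5020 Maf1 were under 88 regions, whose fold ran from 2.31 to 8.25 with a median of 4.13, against 4.31 for the whole list. None of these regions was among the top 10% of the list by −log10 q, and when the R5020 list was limited to its 3048 top-ranked regions, 1 tRNA gene had Maf1, against 14 in the equally long vehicle list. Of the 14 genes, 13 had Maf1 with R5020 as well and TRL-CAA4-1 (fold 3.87) had it with vehicle alone. Many tRNA genes have near-identical copies, and how reads that match several copies were treated is not given in the sources used here.

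All 94 tRNA genes had R5020 POLR3A and R5020 Brf1, which were at 359 and 309 of all 422 tRNA genes. Maf1 was at 92 of the 173 tRNA genes with vehicle H3K27Ac (53.2%, 45.8 to 60.5) and at 2 of the 249 without (0.803%, 0.221 to 2.88). The exceptions were TRG-GCC1-5 and TRK-CTT2-4. The share was similar at protein-coding genes with vehicle H3K27Ac, where R5020 Maf1 was within 1 kb of an end of 6990 of 13633 (51.3%). A high share at acetylated genes was thus not particular to tRNA genes. Among tRNA genes with R5020 POLR3A, Maf1 was at 92 of 170 with vehicle H3K27Ac and 2 of 189 without (1.06%). It was at 0 of the 50 tRNA genes with POLR3A and no Brf1, which allows a share of up to 7.13% by the Wilson interval. When H3K27Ac and Maf1 both had to cover the gene itself, the shares were 55.9% with and 10.0% without.

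Among the tRNA genes with R5020 POLR3A and vehicle H3K27Ac, 62 of the 94 under R5020 PR held Maf1 (66.0%, 55.9 to 74.7), against 30 of the 76 free of it (39.5%, 29.2 to 50.7). It was at 28 of 55 tRNA genes near a protein-coding gene end (50.9%) and at 66 of 367 others (18.0%). On chromosome 6, which holds the largest tRNA cluster, it was at 14 of 149 (9.40%, 5.68 to 15.2), against 80 of 273 on other chromosomes (29.3%, 24.2 to 35.0).

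**Figure D4:**
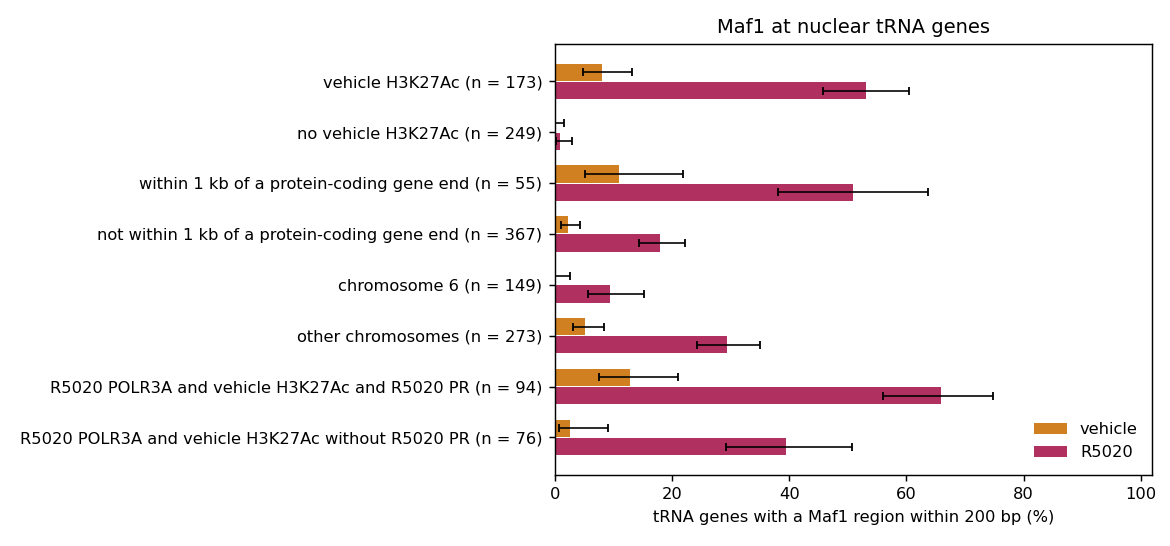
Share of tRNA genes with a Maf1 region within 200 bp (x axis, percent) for groups of tRNA genes (y axis, with their number), with vehicle and with R5020; bars are shares and lines 95% Wilson intervals. With R5020 the share is 53.2% for genes with vehicle H3K27Ac and 0.803% for those without. For acetylated protein-coding genes, not drawn and counted within 1 kb of an end, it is 51.3%.

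At tRNA genes the Maf1 summit lay nearer to the polymerase than to PR. Over the 88 regions the median distance to the R5020 POLR3A summit was 62.5 bp, to Brf1 86 bp and to PR 333 bp, and 21.6% (14.3 to 31.3) lay within 100 bp of a PR summit, against 57.1% of all R5020 Maf1 summits. These regions were chosen for lying at tRNA genes, where the polymerase also sits. The Maf1 summit lay within the tRNA gene for 46 of the 94 genes.

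The tRNA gene with the highest −log10 q with R5020 was TRN-GTT2-1, an asparagine tRNA gene, under a region at chr1:148528695-148529512 of fold 8.05; with vehicle it had fold 4.10. TRN-GTT2-6 and TRF-GAA1-6 shared 1 region on chromosome 19 (8.25; TRN-GTT2-6 had 3.59 with vehicle), and TRD-GTC2-10 and TRA-TGC4-1 shared 1 on chromosome 12 (7.09; 3.66 with vehicle). Next came TRK-TTT3-2 (6.35), TRI-AAT5-4 (6.32; 3.93 with vehicle), TRN-GTT2-7 (5.40), TRF-GAA1-4 (6.24) and TRQ-TTG1-1 (5.37). The other genes with vehicle Maf1 were TRL-AAG2-4 (4.42), TRS-AGA2-5 (3.92), TRE-CTC1-1 (3.85), TRQ-CTG1-4 (3.76), TRT-CGT4-1 (3.71), TRM-CAT1-1 (3.22), TRN-GTT25-1 (2.98) and TRI-AAT5-5 (2.78), with vehicle folds in parentheses.

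With R5020, Maf1 lay at genes of every isotype but selenocysteine. It was at 9 of 26 arginine, 8 of 26 serine, 7 of 32 leucine, 6 of 20 proline, 6 of 21 asparagine and 4 of 9 histidine tRNA genes. It was at 3 of 8 initiator methionine genes (37.5%, 13.7 to 69.4) and at 1 of 29 cysteine genes (3.45%, 0.611 to 17.2). The intervals of most families overlap. Among other RNA polymerase III genes, RN7SK, whose RNA restrains transcription elongation, had a Maf1 region in both lists (fold 4.54 with vehicle and 5.67 with R5020). RPPH1 (4.14), RN7SL1 (6.38), RN7SL2 (4.44) and VTRNA1-2 (5.36) had one with R5020 alone. The other 8 genes of the list had none.

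At protein-coding genes, Maf1 lay within 1 kb of an end of 1876 of 19974 genes with vehicle (9.39%) and 7160 with R5020 (35.8%). It was there with R5020 alone at 5327 (26.7%) and with vehicle alone at 43 (0.215%). H3K27Ac with vehicle was at 68.3% of genes, and among these 13633 acetylated genes the shares with Maf1 were 13.4% with vehicle and 51.3% with R5020. PR was also at 92.6% of the 7160 genes. With the R5020 list limited to its 3048 top-ranked regions, 3.41% of genes had Maf1, below the 9.39% of vehicle. Since most members of the gene lists below were acetylated, their counts are best read against 13.4% and 51.3%.

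Genes of the RNA polymerase III machinery itself had Maf1 at their ends. Of 18 subunit genes, 5 had it with vehicle and 12 with R5020 (66.7%, 43.7 to 83.7). POLR2H, a subunit shared by the polymerases, had fold 7.34 with R5020, POLR3G 6.71, CRCP 5.37 and POLR3E 6.31. Of 19 initiation factor genes, 7 had it with vehicle and 13 with R5020 (68.4%, 46.0 to 84.6). SNAPC5, a subunit of the snRNA activating complex, had fold 8.79 with vehicle and 14.0 with R5020, and its region also covers the end of RPL4. MAF1, the gene of the repressor, had 4.01 with vehicle and 7.86 with R5020, and BRF2 2.53 and 5.74. These intervals hold the 51.3% of acetylated genes.

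Genes that act on Maf1, or on tRNAs, made up 3 more lists. Of 19 genes of kinases and phosphatases that act on Maf1, and of the pathways that control them, 4 had Maf1 with vehicle and 16 with R5020 (84.2%, 62.4 to 94.5). They included AKT1S1, a TORC1 component (9.27 with R5020), and TSC1, a TORC1 inhibitor (6.23). Of 20 cytosolic aminoacyl-tRNA synthetase genes, 4 had it with vehicle and 15 with R5020 (interval 53.1 to 88.8%), led by GARS1 (19.7 with vehicle, 27.5 with R5020), AARS1 (10.3 and 16.8) and CARS1 (14.8 with R5020). Of 18 tRNA processing and export genes, 3 and 9 had it (interval with R5020 29.0 to 71.0%), led by TSEN15 (8.10 with R5020), TSEN54 (7.56) and XPOT (6.96), the tRNA exportin.

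Of 79 cytosolic ribosomal protein genes, 25 had Maf1 with vehicle and 66 with R5020 (83.5%, 73.9 to 90.1), and 78 were acetylated with vehicle. RPS18 had fold 15.0 with vehicle and 27.0 with R5020, RPL13 8.03 and 21.4, and RPL41 16.2 and 16.8. With the whole list, the intervals of ribosomal proteins, of steroid receptor cofactors and chaperones, of the kinases and phosphatases and of the synthetases lie above 51.3%. These counts depend on the weaker regions. With fold of at least 5 they were 30 of 79, 4 of 12, 6 of 19 and 4 of 20 in that order. With the 3048 top-ranked R5020 regions they were 10, 0, 2 and 3. Over all protein-coding genes the share also fell, from 35.8% to 11.8% and 3.41% under the same filters. Shares of acetylated genes under these filters were not computed.

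Of 20 progestin-responsive genes, 2 had Maf1 with vehicle and 10 with R5020 (interval 29.9 to 70.1%), and 17 had R5020 PR within 1 kb of an end. The 10 genes with Maf1 were all among the 17. BCL2L1 had fold 23.8 with R5020, and FKBP5, a co-chaperone of steroid receptors, had 3.34 with vehicle and 27.4 with R5020. S100P had 11.9, CCND1 3.02 with vehicle and 7.78 with R5020, HSD11B2 7.07, and NDRG1 4.28. Of 12 cofactors and chaperones of steroid receptors, 4 and 11 had Maf1 (91.7%, 64.6 to 98.5), among them EP300, an acetyltransferase (7.50 with R5020), FKBP4 (4.25), NCOA3 (4.55), PTGES3 (5.09) and HSP90AB1 (5.38).

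Of 16 luminal transcription factor genes, 8 had Maf1 with vehicle (interval 28.0 to 72.0%) and 10 with R5020 (38.6 to 81.5%, which holds 51.3%). The vehicle intervals of immediate early genes (19.3 to 68.0%), initiation factors (19.1 to 59.0%), ribosomal proteins (22.4 to 42.5%) and cofactors and chaperones (13.8 to 60.9%) also lie above 13.4%. XBP1 had fold 11.0 with vehicle and 17.2 with R5020, FOXA1, a pioneer factor, 5.13 and 9.01, SPDEF 3.85 and 9.70, and PGR, the gene of PR, 2.79 and 9.25. Of 12 immediate early genes, 5 and 9 had it, among them IER3 (19.4 and 25.7), JUND (4.27 and 8.88) and JUNB (8.59 and 5.02). Of 14 cell cycle genes, none had it with vehicle, which allows a share of up to 21.5%. The cyclin gene CCND1, counted above with the progestin-responsive genes, did have it with vehicle (3.02). With R5020, 8 of the 14 had Maf1, among them CDK6 (7.10), E2F1 (5.42) and CCND3 (6.12). Of 13 lipid synthesis genes, 3 and 8 had it, with SREBF1 at 6.01 and 8.17, SREBF2 at 4.10 and 7.50 and FASN at 4.44 and 5.61. No member of these 12 lists had Maf1 with vehicle alone, which was rare over all protein-coding genes too (0.215%). Of the cell type markers below, EPCAM had it with vehicle alone (4.05).

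**Figure D5:**
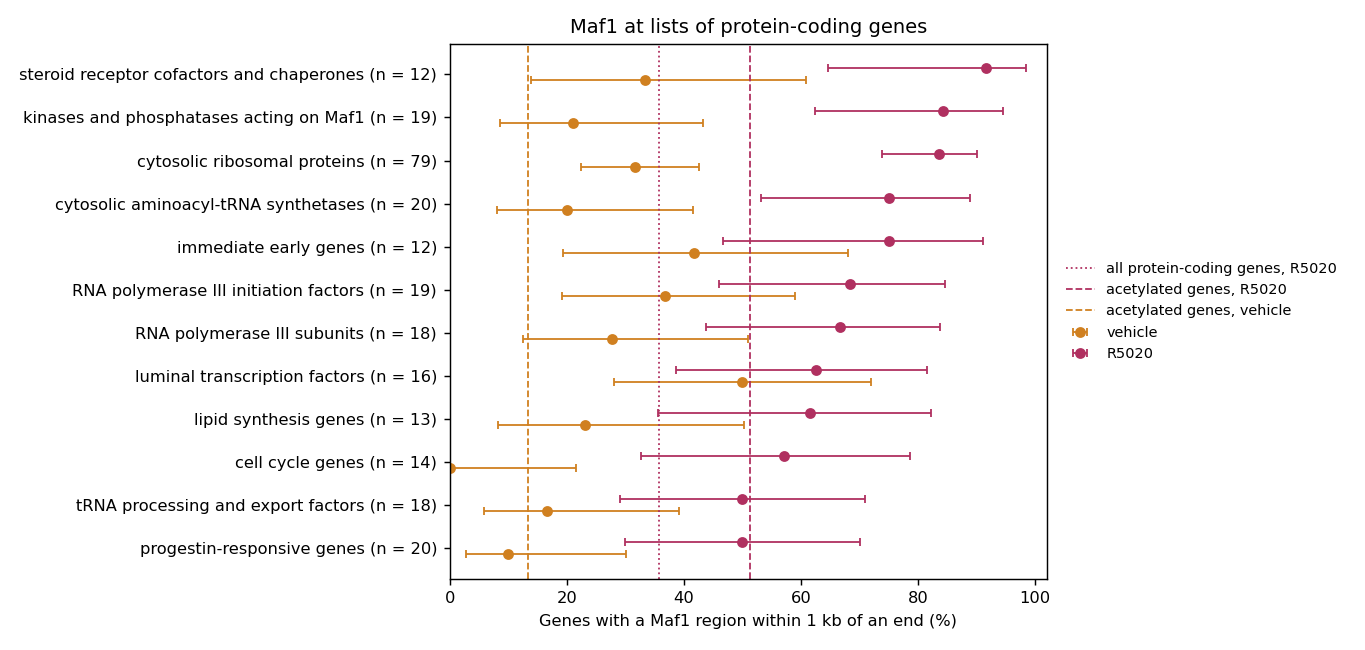
Share of genes in each list with a Maf1 region within 1 kb of an end (x axis, percent), with vehicle and with R5020; points are shares, bars 95% Wilson intervals and vertical lines the shares of all or of acetylated protein-coding genes. With R5020 the steroid receptor cofactors and chaperones stand at 91.7% and the ribosomal proteins at 83.5%, against 51.3% of acetylated genes.

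As a check of the cell type, vehicle acetylation was counted at markers, against 68.3% of all protein-coding genes. It was at all 12 luminal breast markers, 3 of 8 basal and stromal markers and 4 of 6 blood and endothelial markers. The last share is near that of all genes, so acetylation did not set those markers apart. Maf1 with R5020 was at 8 luminal, 1 basal or stromal and 1 blood or endothelial marker, against 35.8% of all protein-coding genes. For the luminal markers, all of them acetylated, the interval was 39.1 to 86.2%. It holds the 51.3% of acetylated genes.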

How the data were processed

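The submitters' processing notes name cutadapt, Bowtie2, MACS2 and the build hg38; versions and settings are not given in the sources used here. The deposited lists hold, for each peak, a fold enrichment (a ratio over the caller's background), the −log10 of the q-value and the summit's position, all the authors' values. Here they served for ranking, filtering and description inside a single list. Each list stands for 3 libraries, and how they were combined is not given in the sources used here. Rows on chromosome Y and scaffolds (51 with vehicle, 253 with R5020) were left out. The R5020 lists of POLR3C and POLR3G and both POLR3GL lists were not used, because 4 libraries of these subunits titled R5020 carry an ethanol tag; no Maf1 library does.

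Overlap meant at least 1 bp. Genes came from RefSeq (GRCh38.p14): 19974 protein-coding and 422 nuclear tRNA genes. Both ends of a gene were used in place of the start sites first planned, since strand was known only for the 15712 genes with a promoter window. Motifs were searched on both strands. Shares have 95% Wilson intervals, differences Newcombe intervals and log2 ratios counting intervals, computed with Python 3.11.15, numpy 2.4.6, pandas 2.3.3 and scipy 1.17.1 and drawn with matplotlib 3.10.9. They reflect counting error alone, and neighbouring regions or genes are not independent. With 1 list per treatment no p-value was computed. Overlap and distance functions were tested on simulated regions. Named loci were the regions of highest −log10 q by class (5 vehicle, 5 shared, 10 hormone-only at gene ends, 5 lost, 5 without PR), every tRNA gene with vehicle Maf1, the 10 leading tRNA genes with R5020, the 5 genes with most R5020 regions, and the leading members of each gene list. Single values of some list members are not reported here. The members, lists and rules were chosen with earlier results of these data known. Alternatives were stricter −log10 q or fold, equal numbers of regions, 50% overlap and other distances.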

Additional observations from a re-analysis of the deposited data

How the results depend on the processing

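No paired analysis was possible because each treatment has 1 Maf1 list, which carries no replicate number, and for the same reason no replicate could be left out. The log2 ratio of region counts was 3.11 with −log10 q of at least 5 and 3.54 with fold of at least 5. In that order of filters, followed by equal numbers of top regions (3048 per list), vehicle regions also found with R5020 were 90.1%, 87.6% and 27.7%; hormone-only regions with vehicle H3K27Ac 72.6%, 76.0% and 78.8%; hormone-only regions with PR 91.2%, 96.7% and 99.8%; R5020 summits within 100 bp of a PR summit 67.0%, 77.2% and 85.6%; and R5020 regions at gene ends 32.6%, 26.6% and 18.1%. R5020 regions with POLR3A were 0.650% with fold of at least 5 and 0.525% with equal numbers. Requiring 50% of both regions gave 46.0% of vehicle regions found again, 3.56% of hormone-only regions with H3K27Ac, 20.8% with PR and 0.473% of R5020 regions with POLR3A; widths differ between lists, so this rule removes narrow regions inside wide ones. Summit distances of 50 and 200 bp gave 46.1% and 64.6%. A distance of 5 kb from a gene end gave 48.7%. Start sites alone, known only for the 15712 genes with a promoter window, gave 28.1%, so the genes covered differ as well. Start sites had first been planned as the main measure. Their use as an alternative on these genes was chosen after seeing the data. tRNA genes with vehicle Maf1 numbered 5 with −log10 q of at least 5 and 0 with fold of at least 5. With R5020 they numbered 20 with fold of at least 5 and 1 with equal numbers of regions. The rise from 14 to 94 thus turned into a fall from 14 to 1 under equal numbers. That setting shortened the R5020 list alone, since the vehicle list holds 3048 regions in all. In alternatives that were likewise chosen after seeing the data, vehicle-acetylated tRNA genes with R5020 Maf1 were 37.0%, 11.6% and 0.578% under the 3 filters, against 0% of the others. The causes were not tested. Depth could not be examined, since peak lists hold no reads.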

Other observations

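Some genes carried many R5020 Maf1 regions. Counting the gene's span and 10 kb on each side, 172 protein-coding genes had 10 or more R5020 Maf1 regions and 2 had as many with vehicle. GSE1, a chromatin cofactor gene, had 64 with R5020 and 16 with vehicle, and 57 of the 64 were under PR. PRLR, the prolactin receptor gene, had 34 and 2, with 20 of the 34 under PR. LOC124905135 had 33 and 4, IGF1R, the receptor of insulin-like growth factor 1, 32 and 1, and ANKRD11 27 and 0. Long genes offer more room: per 100 kb, LOC124905135 had 37.0 and IGF1R 9.52, against a median of 0.732 over all genes.

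The growth of the list was uneven across chromosomes. The ratio of R5020 to vehicle regions was 4.31 on chromosome 19 (249 and 1073 regions) and 4.47 on chromosome 21, and it was 17.5 on chromosome 18 (15 and 263), 14.9 on chromosome 13 and 13.4 on chromosome 4. The counting interval of the log2 ratio was 1.91 to 2.31 on chromosome 19 and 3.38 to 4.88 on chromosome 18.

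The widest Maf1 region of both lists lay at the same place on chromosome 21, 18417 bp with vehicle and 24324 bp with R5020, and the latter covered 5 vehicle regions. It held no gene of the table, and the nearest protein-coding gene lay 346872 bp from the R5020 region. SBNO2 had the next widest R5020 region (10843 bp), which covered 6 vehicle regions.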
